A study of Mus musculus with 48 samples.

Results

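Mouse livers collected 24 h after the first administration of LX-A1656 were compared with livers collected 24 h after the first administration of PBS. The comparison took 8 of the 48 libraries of the series, 4 of each group, chosen by the treatment and the time given in the labels, and it covered every gene tested. LX-A1656 is a modified gapmer antisense oligonucleotide directed against Scarb1, and PBS is its vehicle. The other groups used here were the gapmers LX-A2003 and LX-A3928 at 24 h, both also directed against Scarb1, LX-A1656 at 72 h, and PBS at 72 h and 168 h, with 4 libraries each. All samples were liver. The sources used here do not give the sequence, chemistry and dose of each oligonucleotide, whether doses were matched, later administrations, or the strain, sex, age and hour of collection of the mice. Nothing in the labels says that replicates came from separate animals. A p-value therefore measures only how far samples varied within their groups, and that spread may be technical. For the gene tests this spread was pooled over all 12 groups of the series.

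Gapmers have a central DNA segment flanked by chemically modified wings. They pair with a complementary transcript, and the nuclease RNase H1 then cuts the RNA of the duplex. RNase H1 works in the nucleus as well as in the cytoplasm, so unspliced transcripts with their introns can also be cut. The intended target, Scarb1, encodes the scavenger receptor SR-BI, which takes up cholesteryl esters from HDL into hepatocytes and is also present on liver sinusoidal endothelial cells. Hepatocytes sense their sterol supply through SCAP, the INSIG proteins and the transcription factor SREBP2, and they make the iron hormone hepcidin (Hamp) in response to BMP ligands from the endothelial cells that line the sinusoids.

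Expression was measured with a targeted kit that amplifies a designed fragment of each gene, and the count of a gene says nothing of its other exons. Levels are in CPM, the reads of a gene relative to the total of its library, after the totals were adjusted with TMM factors. The deposited table listed 23930 genes, of which 12672 had enough counts to be tested. Library totals ran from 8140065 to 10183661 counts in the LX-A1656 24 h group and from 8381297 to 11472905 in the PBS 24 h group. The number of genes detected was 14219.2 ± 231 with LX-A1656 and 14043.0 ± 238 with PBS (SD, n = 4 each; two-sided exact permutation p = 0.343, where the smallest possible p is 0.0286). The 9 hepatocyte markers listed summed to 84684 to 94893 CPM with LX-A1656 and 79636 to 92028 CPM with PBS, and the ranges overlapped. A gene is called changed where its adjusted p in the edgeR quasi-likelihood F test was under 0.05. Fold changes are log2 values ± SE of LX-A1656 over PBS, with 4 libraries in each group, unless another pair is named. The SE and p of a gene come from a fit of all 48 libraries, so they also hold the spread of groups outside the pair.

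At 24 h, 363 of the 12672 genes tested were called, 2.86% of them. LX-A1656 raised 125 genes (0.986%) and lowered 238 (1.88%). The counts of called list members given below are to be read beside these shares. The number raised was 64 without PBS replicate 1, 66 without PBS replicate 2 and 73 without PBS replicate 4, and a fit of the 8 libraries alone raised 308 and lowered 495. With an added requirement of a log2 fold change of at least 1 in size, 52 genes (0.41%) were higher and 107 (0.844%) were lower. The lower genes were led by Scarb1 and by genes that span long stretches of genome, with the endothelial receptor Kdr and the iron hormone Hamp among them. Among genes that reached a mean of 10 CPM in 1 group, the higher ones were led by Bmf, a BCL2 family member, and Insig1 and Msmo1 of the sterol response were among them.

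Promoter sequences are shown for 3 called genes that hold a fixed motif, each from a list described here whose known transcription factor binds it. They are the 250 bases before the gene start from RefSeq (build GRCm38.p6), all on the minus strand, written in lower case from 5′ to 3′ with the motif in capitals. For Hamp the capitals mark GGCGCC, the BMP-responsive element, at 109 bases before the start (chr7:30944030-30944279), a motif that 9.59% of 32851 promoters held. For Cry1 they mark CACGTG, the E-box bound by CLOCK or NPAS2 with BMAL1, at 60 bases before the start (chr10:85185055-85185304), a motif in 6.02% of promoters. For Ugdh they mark TGACNNNGC, the core of the antioxidant response element bound by NRF2, at 132 and, on the other strand, 94 bases before the start (chr5:65435843-65436092), a motif in 10.2% of promoters.
Hamp: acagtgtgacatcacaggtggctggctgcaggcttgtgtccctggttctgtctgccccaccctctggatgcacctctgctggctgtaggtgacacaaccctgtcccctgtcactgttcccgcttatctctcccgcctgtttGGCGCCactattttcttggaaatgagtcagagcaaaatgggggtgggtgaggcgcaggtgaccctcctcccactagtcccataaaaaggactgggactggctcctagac
Cry1: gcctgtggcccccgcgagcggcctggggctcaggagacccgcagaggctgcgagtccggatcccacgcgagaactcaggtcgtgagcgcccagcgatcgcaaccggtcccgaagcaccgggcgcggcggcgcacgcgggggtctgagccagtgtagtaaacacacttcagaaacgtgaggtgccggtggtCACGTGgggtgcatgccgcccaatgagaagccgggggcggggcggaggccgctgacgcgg
Ugdh: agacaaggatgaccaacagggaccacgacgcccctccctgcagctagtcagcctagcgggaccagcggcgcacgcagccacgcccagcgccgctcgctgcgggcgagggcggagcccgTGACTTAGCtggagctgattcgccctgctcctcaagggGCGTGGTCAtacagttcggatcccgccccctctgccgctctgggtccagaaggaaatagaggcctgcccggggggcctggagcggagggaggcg
Both strands were searched. Among list members with a promoter in the table, GGCGCC was in 8 of 18 members of the hepcidin and BMP list, CACGTG in 3 of 15 clock genes, and TGACNNNGC in 5 of 14 NRF2 targets. The only called genes among these holders were Hamp and Neo1 for GGCGCC, Cry1 for CACGTG and Ugdh for TGACNNNGC. The called members Id3, Dbp and Nqo1 were not among the holders. The sterol regulatory element, searched as TCACNCCAC, was in 1.05% of promoters and in 1 of 13 sterol synthesis genes (Hmgcs1). A match describes these letters in this window and does not show that a factor binds there.

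The intended target fell most of all the called genes that met the level and separation criteria. Scarb1 had 11.8, 9.53, 9.95 and 10.9 CPM in the LX-A1656 libraries, against 281, 236, 291 and 278 CPM in the PBS libraries. All 4 LX-A1656 libraries lay far below all 4 PBS libraries. The mean was 10.6 ± 1.04 CPM with LX-A1656 and 272 ± 24.2 CPM with PBS (SD, n = 4 each), so 3.89% of the PBS level was left, a log2 fold change of -4.68 ± 0.248 (adjusted p = 6.63e-19). Scarb2, which encodes the lysosomal membrane protein LIMP-2 of the same family, had 55.9 to 70.1 CPM with LX-A1656 and 84.7 to 106 CPM with PBS. It fell by 0.54 on the log2 scale (SE 0.148, adjusted p = 0.0302), a call lost when any of 4 single libraries was left out, with adjusted p up to 0.139. The other 8 scavenger and lipoprotein receptors tested were not called.

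**Figure D1:**
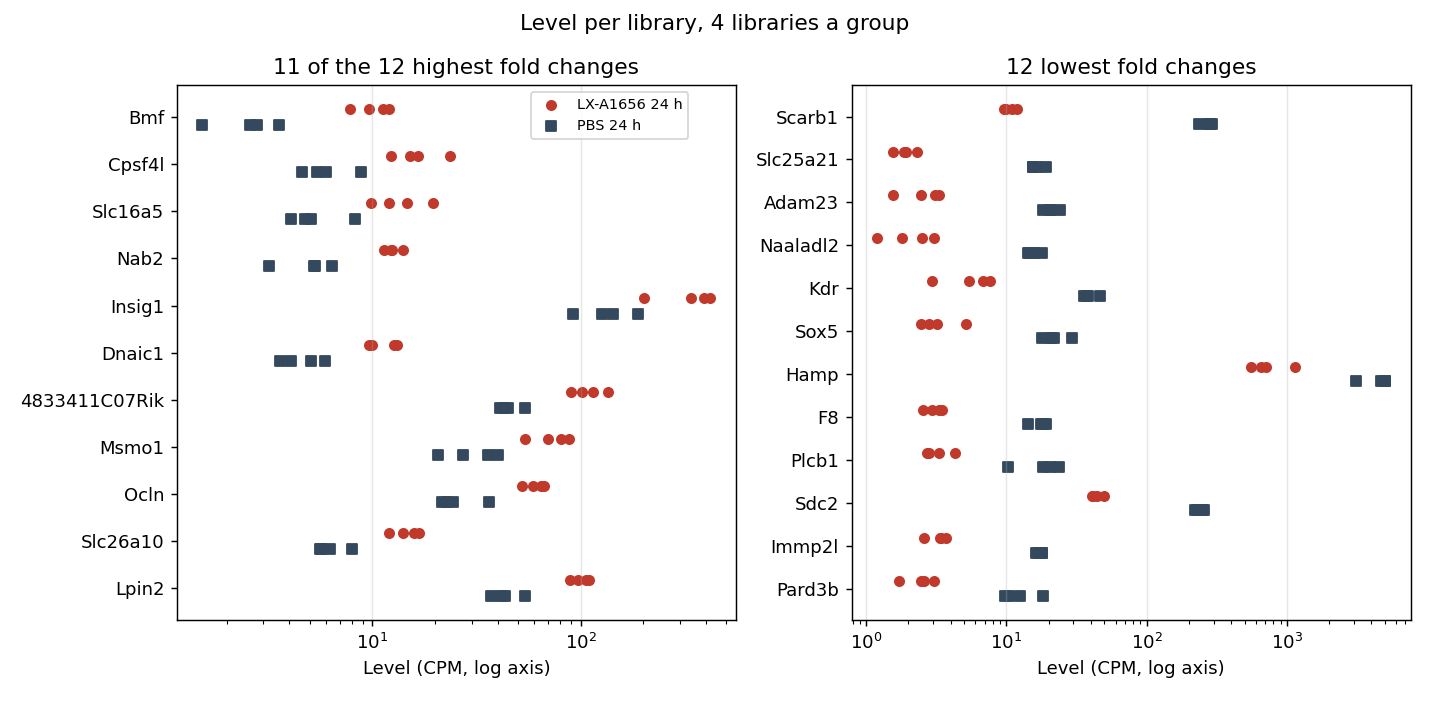
Level of 11 of the 12 genes with the highest and of the 12 with the lowest log2 fold change at 24 h among called genes that reached 10 CPM on average in 1 group, in CPM on a log axis, with 1 point per library (red circles LX-A1656, dark squares PBS, 4 libraries each). The groups do not overlap for any gene shown, which the rule that chose them required; Scarb1 lies at 9.53 to 11.8 CPM with LX-A1656 and at 236 to 291 CPM with PBS.

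After Scarb1, the genes with the lowest fold changes came from unrelated functions. Slc25a21, the mitochondrial oxodicarboxylate carrier, had 1.93, 2.32, 1.86 and 1.56 CPM with LX-A1656, against 16.5, 19.2, 15.5 and 15.5 CPM with PBS, and fell by 3.12 (SE 0.306, adjusted p = 5.2e-10). Sdc2, the heparan sulfate proteoglycan syndecan-2, had 40.9, 49.6, 44.2 and 41.4 CPM with LX-A1656 and 233, 250, 220 and 256 CPM with PBS. It fell by 2.45 on the log2 scale (SE 0.168, adjusted p = 7.12e-15). F8, coagulation factor VIII, had 3.48, 2.93, 2.52 and 3.33 CPM with LX-A1656 and 17.6, 19.2, 14.3 and 18.3 CPM with PBS, and fell by 2.49 (SE 0.38, adjusted p = 1.88e-05). No LX-A1656 library of these 3 genes reached the lowest PBS library, which the rule that named them required.

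Adam23, a cell surface protein of the disintegrin family, fell by 2.99 on the log2 scale (adjusted p = 2.01e-13), and Naaladl2, a peptidase-like membrane protein, fell by 2.86 (adjusted p = 1.62e-07). The transcription factor Sox5 fell by 2.72 (adjusted p = 1.71e-08). The phospholipase Plcb1 fell by 2.47 (adjusted p = 4.56e-05), the mitochondrial inner membrane peptidase subunit Immp2l by 2.40 (adjusted p = 2.53e-07) and the polarity gene Pard3b by 2.37 (adjusted p = 5.19e-06). The last 3 genes had 1.71 to 4.28 CPM with LX-A1656 and 9.79 to 23.7 CPM with PBS.

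The genes called lower had long genomic spans. RefSeq gave a genomic span, from the first to the last base of the gene with introns, for 12513 of the 12672 genes tested. The median span was 133 kb for the genes called lower, 18.5 kb for the genes called higher and 23.5 kb for all genes tested. Naaladl2 spans 1346 kb, Pard3b 1004 kb, Sox5 954 kb, Immp2l 932 kb, Plcb1 689 kb and Slc25a21 485 kb. Some strongly lowered genes were shorter than these. Scarb1 itself spans 64.0 kb and Kdr 46.2 kb, both above the median of all genes tested, and Hamp spans 1.66 kb.

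The share of genes called lower rose with span in each step. It was 0.428% of 5614 genes under 20 kb, 0.944% of 3496 genes from 20 to 50 kb, 2.19% of 1828 genes from 50 to 100 kb, 5.14% of 1031 genes from 100 to 200 kb and 16% of 544 genes of 200 kb or more. The last bin held 87 genes called lower and 1 called higher, with 58 to 68 called lower when a library was left out and 142 of 453 in a fit of the 8 libraries alone. The share called higher went the other way, at 1.16% under 20 kb and 0.184% at 200 kb or more. The amplified fragments of the genes of 200 kb or more had a median of 6.56 CPM with LX-A1656 and 10.2 CPM with PBS, and those of the genes under 20 kb had 12.8 CPM with LX-A1656 and 12.3 CPM with PBS.

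The shift of the long genes was present in every LX-A1656 library. For each library, the median over the 544 genes of 200 kb or more was taken of the log2 ratio to the mean PBS 24 h level, with 0.5 CPM added to both. It was -0.359, -0.346, -0.366 and -0.347 in the LX-A1656 libraries, -0.218 to -0.143 in the LX-A2003 libraries, -0.150 to -0.091 in the LX-A3928 libraries and -0.026 to 0.003 in the PBS libraries, which are part of the mean they are compared with. The 4 groups did not overlap, except that the lowest LX-A3928 library lay below the highest LX-A2003 library. In the direct tests of LX-A1656 against another oligonucleotide, 6 of the 544 long genes were lower and 0 higher with LX-A1656 than with LX-A2003, and 43 were lower and 1 higher than with LX-A3928. The sources used here do not give the oligonucleotide sequence, so the part of pairing with other transcripts in these values was not tested.

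**Figure D2:**
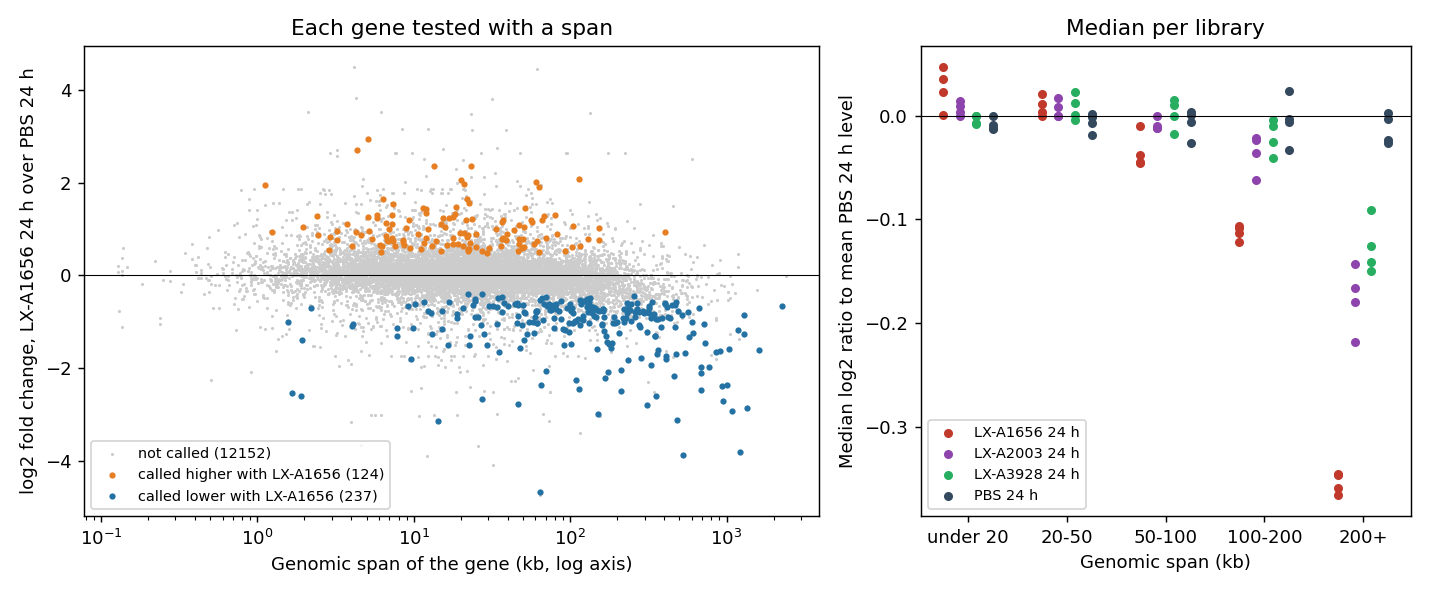
Left, the log2 fold change of each gene at 24 h against its genomic span in kb on a log axis, with genes called higher in orange, genes called lower in blue and the rest in grey. Right, the median log2 ratio to the mean PBS 24 h level in each library (points) by span bin, from LX-A1656 to PBS within a bin; the LX-A1656 libraries reach -0.366 to -0.346 at 200 kb or more, below every library of the other groups.

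Several markers of liver sinusoidal endothelial cells fell. These cells line the sinusoids with a fenestrated, scavenging endothelium. Of 12 markers tested, 4 were called lower and 0 higher, and all 12 log2 fold changes were below 0, with a median of -0.54 against 0.02 over all genes tested. Kdr, the main VEGF receptor of endothelial cells, had 2.96, 7.57, 5.44 and 6.86 CPM with LX-A1656, against 46.6, 37.5, 35.8 and 38.3 CPM with PBS. It fell by 2.78 on the log2 scale (SE 0.204, adjusted p = 5.64e-14). Stab2, the hyaluronan scavenger receptor stabilin-2, had 10.7, 13.4, 12.7 and 8.73 CPM with LX-A1656, against 49.3, 56.1, 54.0 and 51.6 CPM with PBS. It fell by 2.21 (SE 0.203, adjusted p = 8.58e-11). In both genes the highest LX-A1656 library held less than the lowest PBS library.

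The other sinusoidal markers had smaller fold changes. Oit3, a zona pellucida domain protein of these cells, averaged 31.3 ± 3.14 CPM with LX-A1656 and 56.3 ± 3.19 CPM with PBS (SD, n = 4 each) and fell by 0.84 (adjusted p = 9.24e-05). The orphan receptor Gpr182 averaged 15.6 ± 2.13 CPM with LX-A1656 and 25.4 ± 2.5 CPM with PBS, and its fall of 0.70 (adjusted p = 0.0422) lost the call in 9 of 15 alternative analyses, with adjusted p up to 0.148. Stab1 had a log2 fold change of -0.56 ± 0.171 (adjusted p = 0.0625) and the hyaluronan receptor Lyve1 one of -0.75 ± 0.243 (adjusted p = 0.0895). Clec4g, at -0.38 ± 0.214 (adjusted p = 0.498), was not called, although its 4 libraries lay between 65.0 and 73.4 CPM with LX-A1656 and between 79.0 and 99.7 CPM with PBS. At an unadjusted p under 0.05, 8 of the 12 markers were lower and 0 higher. DESeq2 called 6 of the 12 lower. A fit of the 8 libraries alone called 8 lower, Clec4g and Stab1 among them. The 12 markers summed to 385 to 410 CPM with LX-A1656 and 581 to 620 CPM with PBS. In bulk liver RNA, fewer cells of a type and less RNA per cell cannot be told apart.

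Of 11 tested genes on a list of general endothelial (pan-endothelial) markers, 0 were called lower and 1 was called higher. The called one was Egfl7, a matrix protein secreted by endothelium, with 24.2, 17.2, 18.7 and 14.2 CPM with LX-A1656 and 13.1, 9.14, 11.2 and 12.2 CPM with PBS (log2 fold change 0.70 ± 0.161, adjusted p = 0.00652). Without 1 library, LX-A1656 replicate 1 or PBS replicate 2, it was no longer called, with adjusted p up to 0.0797. The adhesion molecule Pecam1 averaged 28.8 ± 4.59 CPM with LX-A1656 and 30.7 ± 3.54 CPM with PBS (log2 fold change -0.09 ± 0.139). Cdh5, the junctional VE-cadherin, averaged 38.3 ± 5.76 CPM with LX-A1656 and 38.3 ± 9.13 CPM with PBS. The 13 pan-endothelial markers listed summed to 308 to 323 CPM with LX-A1656 and 318 to 370 CPM with PBS, ranges that overlapped. At an unadjusted p under 0.05, 2 of the 11 were lower and 1 higher. DESeq2 called 1 of the 11 higher and 1 lower, and so did a fit of the 8 libraries alone.

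Among 20 VEGF, angiopoietin and Notch genes, 3 were called lower and 0 higher, where 1.88% of all genes tested were called lower. They were Kdr, the co-receptor Nrp1 (log2 fold change -0.89 ± 0.24, adjusted p = 0.027) and Vegfc, a ligand of lymphatic and sinusoidal VEGF receptors (-0.98 ± 0.224, adjusted p = 0.00615). Nrp1 averaged 45.5 ± 5.88 CPM with LX-A1656 and 84.3 ± 21.4 CPM with PBS, and its call was lost in 6 of 15 alternatives, with adjusted p up to 0.122. Vegfc averaged 2.88 ± 0.691 CPM with LX-A1656 and 5.67 ± 1.43 CPM with PBS, and without LX-A1656 replicate 2 its adjusted p was 0.0503. Flt1, the other main VEGF receptor of blood vessels, had a log2 fold change of -0.26 ± 0.191 (adjusted p = 0.676).

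The iron hormone hepcidin was lower in all 4 LX-A1656 libraries, while the BMP ligands that drive it were not called. Hamp had 650, 551, 705 and 1142 CPM with LX-A1656, against 4976, 4672, 3123 and 5011 CPM with PBS. All LX-A1656 libraries lay below all PBS libraries. The log2 fold change was -2.54 ± 0.309 (adjusted p = 1.85e-07). Of the 27 genes tested in the hepcidin and BMP list, 3 were called lower, 0 higher, and the median log2 fold change was -0.01.

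The other called members were a BMP target and a co-receptor. Id3, a transcriptional target of BMP signalling, had 80.2, 66.7, 67.3 and 84.5 CPM with LX-A1656 and 144, 177, 88.9 and 186 CPM with PBS, and fell by 1.00 (SE 0.248, adjusted p = 0.0137). Its call was lost in 4 of the 8 analyses that left out a library, with adjusted p up to 0.0743. Neo1, neogenin, which binds the hepcidin co-receptor hemojuvelin, averaged 21.4 ± 3.12 CPM with LX-A1656 and 35.6 ± 3.64 CPM with PBS and fell by 0.73 (SE 0.159, adjusted p = 0.00339). Bmp6, the endothelial ligand tied to iron stores, had a log2 fold change of -0.39 ± 0.242 (adjusted p = 0.565), and Bmp2 had one of -0.04 ± 0.18 (adjusted p = 0.979). Id1 had a log2 fold change of -0.50 ± 0.338 (adjusted p = 0.624), and the feedback inhibitor Smad7 averaged 20.9 ± 2.61 CPM with LX-A1656 and 21.0 ± 4.72 CPM with PBS. Slc40a1, the iron exporter ferroportin, had 78.2, 72.8, 91.4 and 85.4 CPM with LX-A1656 and 121, 120, 105 and 130 CPM with PBS, with a log2 fold change of -0.54 ± 0.16 just outside the threshold (adjusted p = 0.0508).

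**Figure D3:**
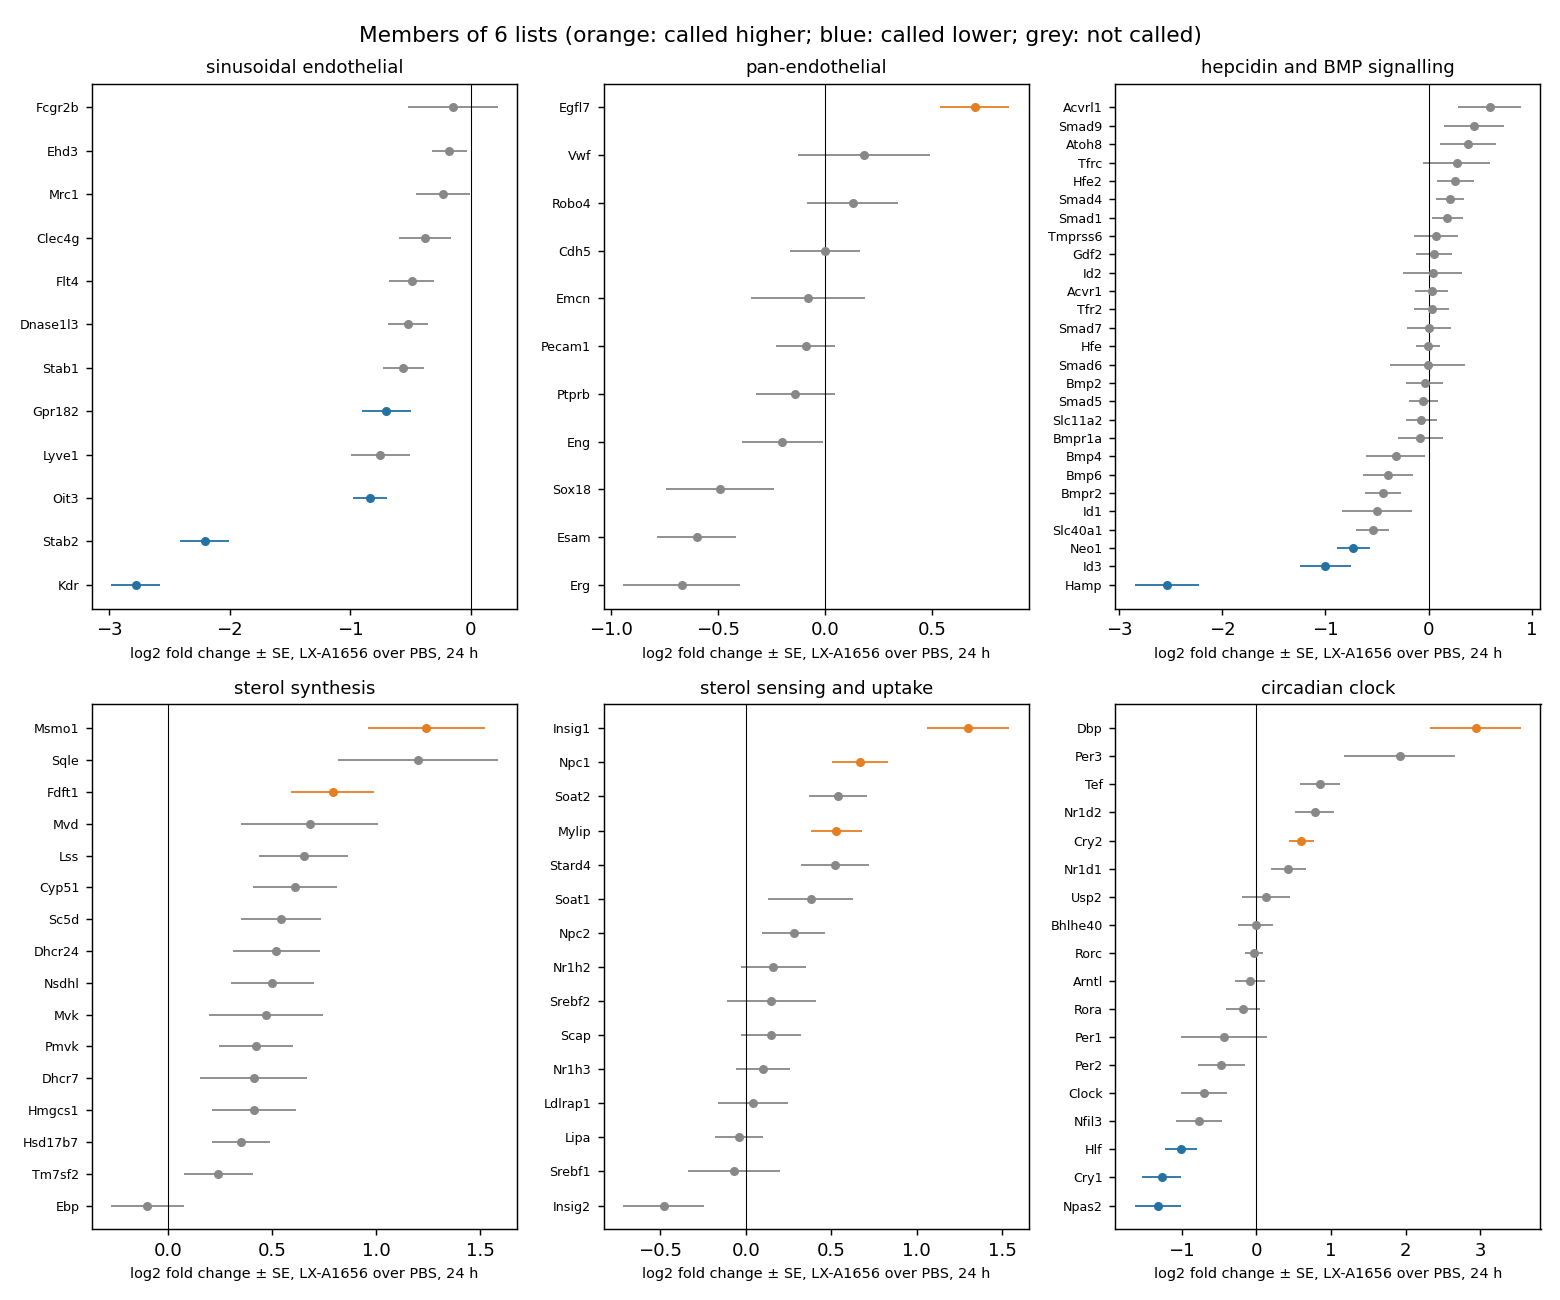
Log2 fold change ± SE of LX-A1656 over PBS at 24 h for members of 6 lists, 4 libraries a group, with called genes in orange (higher) or blue (lower) and the rest in grey. All 12 sinusoidal endothelial markers lie below 0, with Kdr at -2.78 and Stab2 at -2.21, and 15 of the 16 sterol synthesis genes shown lie above 0.

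Some genes of the sterol response rose. Insig1, which retains SCAP in the endoplasmic reticulum and is itself a target of SREBP2, had 393, 420, 201 and 338 CPM with LX-A1656, against 189, 126, 143 and 91.8 CPM with PBS. It rose by 1.30 (SE 0.242, adjusted p = 0.000514). The lowest LX-A1656 library lay narrowly above the highest PBS library, at 201 CPM with LX-A1656 and 189 CPM with PBS.

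In the sterol sensing and uptake list, 4 of 17 genes tested were called higher and 0 lower, with a median log2 fold change of 0.28. Besides Insig1 they included Npc1, the lysosomal cholesterol exporter (0.67 ± 0.164, adjusted p = 0.0114), and Mylip, an LXR-induced ubiquitin ligase (0.53 ± 0.148, adjusted p = 0.0354). Npc1 averaged 169 ± 13.6 CPM with LX-A1656 and 106 ± 13.2 CPM with PBS, and without PBS replicate 1 or PBS replicate 2 it was not called, with adjusted p up to 0.0728. The Mylip call was lost in 8 of 15 alternatives, with adjusted p up to 0.158. Srebf2, which encodes SREBP2, had a log2 fold change of 0.15 and was not called.

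In sterol synthesis, 2 of 17 enzymes tested were called higher and 0 lower. The median log2 fold change was 0.50, 16 of the 17 were above 0, and 12 of 17 were higher at an unadjusted p under 0.05, against 770 of the 12672 genes tested. Msmo1, the sterol C4-methyl oxidase, had 80.5, 69.7, 53.9 and 88.4 CPM with LX-A1656, against 40.0, 35.8, 27.3 and 20.6 CPM with PBS, and rose by 1.24 (SE 0.28, adjusted p = 0.00536). Fdft1, squalene synthase, averaged 129 ± 12.2 CPM with LX-A1656 and 74.6 ± 4.49 CPM with PBS and rose by 0.79 (SE 0.198, adjusted p = 0.0146). Without LX-A1656 replicate 2 or PBS replicate 1 Fdft1 was not called, with adjusted p up to 0.0725.

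Squalene epoxidase, Sqle, was low in every library, at 1.73 to 4.76 CPM with LX-A1656 and 0.564 to 1.89 CPM with PBS, and its log2 fold change of 1.20 ± 0.383 did not pass (adjusted p = 0.084). In a fit of the 8 libraries alone, 9 sterol synthesis genes were called higher, and DESeq2 called 3.

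Several groups linked to sterol and lipid handling had few or no calls. None of the 13 HDL formation and efflux genes tested was called by edgeR, none had an unadjusted p under 0.05, and DESeq2 called 0. Of 17 fatty acid synthesis genes 0 were called by edgeR or DESeq2, with 2 at an unadjusted p under 0.05. In bile acid synthesis and transport, 1 of 13 genes was higher and 1 lower. Cyp7b1, the oxysterol 7-alpha-hydroxylase of the alternative pathway, had 168, 140, 201 and 218 CPM with LX-A1656 and 509, 473, 498 and 487 CPM with PBS, and fell by 1.44 (SE 0.275, adjusted p = 0.000747). Cyp8b1, the sterol 12-alpha-hydroxylase that sets the share of cholic acid, had 108, 131, 169 and 152 CPM with LX-A1656 and 51.6, 61.9, 85.0 and 72.7 CPM with PBS. It rose by 1.05 (SE 0.222, adjusted p = 0.00261), with no overlap between the groups. Cyp7a1, the rate-limiting enzyme of the classical pathway, had 78.4 to 162 CPM with LX-A1656 and 20.4 to 59.8 CPM with PBS but was not called (log2 fold change 1.40 ± 0.549, adjusted p = 0.209).

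Of 19 PPAR-alpha and fatty acid oxidation genes, 3 were called higher and 0 lower, where 0.986% of all genes tested were called higher. Angptl4, an inhibitor of lipoprotein lipase, had 52.4, 55.9, 127 and 64.6 CPM with LX-A1656 and 25.5, 35.0, 43.5 and 34.1 CPM with PBS (log2 fold change 1.12 ± 0.28, adjusted p = 0.014). LX-A1656 replicate 3 stood apart, and without it the call was lost. Without that library or without PBS replicate 1, the adjusted p reached up to 0.215. The carnitine transferase Cpt1a rose by 0.50 (SE 0.139, adjusted p = 0.0345), a call lost in 9 of 15 alternatives, with adjusted p up to 0.190. Lpin2, a phosphatidate phosphatase, was among the 12 highest genes, at 100.6 ± 9.34 CPM with LX-A1656 and 44.0 ± 7.31 CPM with PBS (log2 fold change 1.19 ± 0.206, adjusted p = 0.000154).

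The gene with the highest fold change among those past 10 CPM was Bmf, a BH3-only protein of the BCL2 family that promotes apoptosis by binding the survival proteins. Bmf had 7.86, 11.2, 9.69 and 12.1 CPM with LX-A1656, against 1.53, 2.60, 2.78 and 3.57 CPM with PBS, and rose by 1.98 (SE 0.427, adjusted p = 0.00318). Of 14 BCL2 family genes, 3 were called higher and 0 lower, where 0.986% of all genes tested were called higher. The median log2 fold change of the 14 was 0.45. The other called members were Mcl1, a survival protein (0.64 ± 0.127, adjusted p = 0.00125), and Bcl2l11, the BH3-only protein BIM (1.15 ± 0.313, adjusted p = 0.0291). The called genes therefore hold members with opposed roles in apoptosis. Bcl2l11 was low, at 2.60 to 4.64 CPM with LX-A1656 and 1.24 to 1.89 CPM with PBS, and its call was lost in 6 of 14 alternatives, with adjusted p up to 0.139. Bbc3, the p53 target PUMA, was not called (1.06 ± 0.356, adjusted p = 0.108).

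Other genes among the 12 highest were of mixed function. The tight junction protein Ocln had 52.3, 58.9, 66.7 and 64.2 CPM with LX-A1656 and 24.3, 22.8, 36.4 and 21.5 CPM with PBS, and rose by 1.20 (SE 0.214, adjusted p = 0.00023). Nab2, a corepressor of EGR transcription factors, had 11.3 to 14.0 CPM with LX-A1656 and 3.18 to 6.38 CPM with PBS and rose by 1.31 (SE 0.215, adjusted p = 7.35e-05). Slc16a5, of the monocarboxylate transporter family, rose by 1.34 (SE 0.279, adjusted p = 0.00215), and Slc26a10, of an anion exchanger family, rose by 1.20 (SE 0.26, adjusted p = 0.00334). Cpsf4l, which resembles a subunit of the polyadenylation machinery, rose by 1.44 (SE 0.278, adjusted p = 0.000774). Dnaic1, an axonemal dynein chain, rose by 1.29 (SE 0.276, adjusted p = 0.00295), and 4833411C07Rik by 1.27 (SE 0.342, adjusted p = 0.0283), a call lost in 7 of 15 alternatives with adjusted p up to 0.0998.

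Clock genes were called in both directions, and the output factor Dbp also differed between PBS groups. The liver clock runs on CLOCK or NPAS2 with BMAL1, which induce the PER, CRY and DBP genes through E-boxes. Of 18 clock genes, 2 were higher and 3 lower. Dbp had 9.01, 5.62, 6.64 and 13.4 CPM with LX-A1656, against 0.180, 1.47, 2.23 and 0.764 CPM with PBS, and rose by 2.94 (SE 0.609, adjusted p = 0.00237). Cry1, a repressor of the clock, had 4.38, 2.20, 2.39 and 5.30 CPM with LX-A1656 and 11.2, 7.56, 8.58 and 7.26 CPM with PBS, and fell by 1.27 (SE 0.257, adjusted p = 0.00148). The groups of both genes did not overlap.

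The activator Npas2 averaged 10.03 ± 2.24 CPM with LX-A1656 and 24.9 ± 10.0 CPM with PBS and fell by 1.32 (SE 0.311, adjusted p = 0.00799). Without LX-A1656 replicate 4 or PBS replicate 1, Npas2 was not called, with adjusted p up to 0.0766. Hlf, a PAR bZIP output factor, fell by 1.01 (SE 0.212, adjusted p = 0.00234). The second repressor, Cry2, averaged 60.2 ± 6.76 CPM with LX-A1656 and 39.6 ± 5.31 CPM with PBS and rose by 0.60 (SE 0.166, adjusted p = 0.0317), a call lost in 7 of 15 alternatives with adjusted p up to 0.137. Arntl, which encodes BMAL1, averaged 30.5 ± 1.47 CPM with LX-A1656 and 32.4 ± 5.08 CPM with PBS and was not called (adjusted p = 0.95).

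Between vehicle groups, Dbp averaged 16.5 ± 9.49 CPM in PBS 72 h, 0.894 ± 0.36 CPM in PBS 168 h and 1.16 ± 0.886 CPM in PBS 24 h. The difference of PBS 72 h over PBS 24 h was 3.85 on the log2 scale (adjusted p = 0.000604), larger than that of LX-A1656 over PBS at 24 h, and Dbp was one of 10 genes (0.0789%) that differed between those vehicle groups. The sources used here do not give the hour of collection, so its part in the clock values at 24 h was not tested. In the same vehicle comparison 0 of 17 sterol synthesis genes, 0 of 12 sinusoidal markers and 0 of 27 hepcidin and BMP genes were called. Of 544 long genes 0 were called, and 1 of 19 PPAR-alpha and fatty acid oxidation genes was higher. PBS 168 h over PBS 24 h had 45 of the 12672 genes tested higher and 86 lower. There the sterol synthesis, sinusoidal and hepcidin lists again had 0 called. In that pair 2 of 544 long genes and 1 of 13 bile acid genes were lower, and 1 of 19 PPAR-alpha genes was higher. With so few genes called in either vehicle pair, a count of 0 in lists of 12 to 27 genes says little.

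Stress and immune lists held few calls at 24 h, where 2.86% of all genes tested were called. At an unadjusted p under 0.05, 5 of 18 NRF2 targets and 5 of 22 immediate early genes were higher and 0 lower. At that p, 6 of 23 interferon response genes and 6 of 21 p53 targets were higher, with 1 lower in each list. Over all 12672 genes tested, 770 were higher and 784 lower. Of 18 NRF2 targets, 2 were called higher. Nqo1, a quinone reductase, had 6.31, 8.67, 7.96 and 8.21 CPM with LX-A1656 and 3.59, 3.39, 3.79 and 3.69 CPM with PBS (log2 fold change 1.11 ± 0.243, adjusted p = 0.00379), and Ugdh, which makes UDP-glucuronate, rose by 0.57 (SE 0.13, adjusted p = 0.00589). Of 23 interferon response genes, 2 were higher. Irf9, a subunit of the ISGF3 factor, rose by 0.66 (SE 0.148, adjusted p = 0.00463), and the proapoptotic gene Xaf1 by 1.00 (SE 0.281, adjusted p = 0.0378). The Xaf1 call was lost in 8 of 14 alternatives, with adjusted p up to 0.186. Of 21 p53 targets, 1 was higher, the autophagy and stress gene Trp53inp1 (0.81 ± 0.198, adjusted p = 0.0107), and without LX-A1656 replicate 4 it was not called (adjusted p = 0.064). Of 22 immediate early and growth arrest genes, 1 was higher, the mRNA decay factor Zfp36 (0.86 ± 0.234, adjusted p = 0.0301), a call lost in 7 of 15 alternatives with adjusted p up to 0.121.

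Over all genes tested 1.88% were called lower and 0.986% higher, so a single call says little about a list of 17 to 23 genes. Of 17 cell cycle genes, 1 was lower, the G1 cyclin Ccnd1 (log2 fold change -1.14 ± 0.295, adjusted p = 0.0189), a call lost in 5 of 15 alternatives with adjusted p up to 0.105. Of 18 xenobiotic genes, 1 was lower, the receptor PXR gene Nr1i2 (-0.64 ± 0.161, adjusted p = 0.014), and without LX-A1656 replicate 4 it was not called (adjusted p = 0.0848). Of 18 gluconeogenesis and glycogen genes, 1 was lower, the glucose transporter Slc2a2 (-0.66 ± 0.158, adjusted p = 0.00915). Of 23 lysosome genes only Npc1, also on the sterol list, was called, and it was higher.

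In 22 of the 41 lists edgeR called no member. These lists held 258 tested members, counting a gene once for each list it is on. Of these members 24 had an unadjusted p under 0.05, DESeq2 called 3 and the fit of the 8 libraries alone called 14. Over all 12672 genes tested, 1554 (12.3%) had an unadjusted p under 0.05 and DESeq2 called 464. The fit of the 8 libraries alone called 803 of 10755. They included nucleic acid sensors (16 genes), inflammatory cytokines and NF-kB targets (16), the acute phase response (18), endoplasmic reticulum chaperones (18) and the integrated stress response (18), whose median log2 fold change was 0.43. Trib3, a target of ATF4 and CHOP, had 4.78 to 7.56 CPM with LX-A1656 and 1.13 to 3.57 CPM with PBS and lay just outside the threshold (1.47 ± 0.441, adjusted p = 0.0566). The markers of Kupffer cells, recruited monocytes, neutrophils, T, NK and B cells, stellate cells and cholangiocytes were also among the lists with no call. So were those of mast cells, and of red cells and platelets. The 12 Kupffer cell markers summed to 299 to 333 CPM with LX-A1656 and 282 to 354 CPM with PBS, and the 10 neutrophil markers to 3.01 to 6.10 CPM with LX-A1656 and 4.85 to 7.02 CPM with PBS. Both pairs of ranges overlapped, and the neutrophil granule genes Mpo and Elane were at 0 in all 8 libraries. The 7 B and plasma cell markers listed summed to 381 to 517 CPM with LX-A1656 and 520 to 660 CPM with PBS. Those ranges did not overlap, although of the 5 tested 0 were called and 1 had all LX-A1656 libraries below all PBS libraries. Such a sum can rest on 1 abundant member, and it does not show a change in the number of these cells.

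Among 20 genes of RNase H, RNA decay and oligonucleotide binding, 0 were called by edgeR, 3 had an unadjusted p under 0.05 and DESeq2 called 1. That gene was Neat1, the noncoding RNA scaffold of paraspeckles, nuclear bodies whose proteins bind gapmers. Neat1 had 1392, 849, 1231 and 1283 CPM with LX-A1656, against 296, 360, 323 and 318 CPM with PBS. The groups were far apart, yet the log2 fold change of 1.87 ± 0.583 did not pass (adjusted p = 0.0736, from 3.28e-07 to 0.196 over the alternatives). Rnaseh1 had a log2 fold change of -0.02 and was not called.

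Over all genes tested, all 4 LX-A1656 libraries lay above all 4 PBS libraries for 5.56% of genes and below them for 6.19%. In the sterol synthesis list they lay above for 10 of 17 genes and below for 0. In the sinusoidal endothelial list they lay below for 8 of 12 and above for 0, and in the BCL2 family above for 6 of 14 and below for 0.

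The direct test of LX-A1656 against LX-A2003 at 24 h called 36 genes (0.284%), 15 higher (0.118%) and 21 lower (0.166%), and that against LX-A3928 called 368 (2.9%), 178 higher (1.4%) and 190 lower (1.5%). The first count fell to 11 without LX-A1656 replicate 1, LX-A1656 replicate 2 or LX-A2003 replicate 2 and to 14 without LX-A2003 replicate 1. The second fell to between 159 and 239 without LX-A1656 replicate 1, 2 or 3 or LX-A3928 replicate 1, 2 or 3. These were 2 pairs, with p-values adjusted over all genes within each pair. Scarb1 averaged 10.6 ± 1.04 CPM with LX-A1656, 23.0 ± 7.80 CPM with LX-A2003, 48.1 ± 9.78 CPM with LX-A3928 and 272 ± 24.2 CPM with PBS (SD, n = 4 each). It was lower with LX-A1656 than with LX-A2003 by 1.12 on the log2 scale (95% interval -1.58 to -0.66, adjusted p = 0.0103) and lower than with LX-A3928 by 2.18 (95% interval -2.64 to -1.72, adjusted p = 1.55e-08). Whether the doses matched cannot be told from the sources used here.

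Kdr averaged 5.71 ± 2.03 CPM with LX-A1656, 20.3 ± 3.03 CPM with LX-A2003, 21.1 ± 2.60 CPM with LX-A3928 and 39.5 ± 4.83 CPM with PBS. It was lower with LX-A1656 than with LX-A2003 (-1.82, 95% interval -2.23 to -1.41, adjusted p = 1.48e-07) and than with LX-A3928 (-1.88, 95% interval -2.29 to -1.47, adjusted p = 1.92e-08). Stab2 was also lower than with LX-A2003 (-1.21, adjusted p = 0.000736) and than with LX-A3928 (-0.93, adjusted p = 0.00442). Cyp7b1 had a log2 difference of -1.37 in both pairs (adjusted p = 0.00956 against LX-A2003 and 0.0023 against LX-A3928), and it averaged 182 ± 34.8 CPM with LX-A1656, 468 ± 236 CPM with LX-A2003, 469 ± 155 CPM with LX-A3928 and 492 ± 15.7 CPM with PBS. Sdc2 was lower with LX-A1656 than with LX-A2003 (-1.07, adjusted p = 0.000124) and than with LX-A3928 (-1.71, adjusted p = 1.61e-09), and so was Slc25a21 (-1.39, adjusted p = 0.0281 against LX-A2003, and -1.83, adjusted p = 0.000179 against LX-A3928).

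For Hamp, Bmf, Insig1 and Cry1 the difference was not called in at least 1 of the 2 pairs. Hamp was lower than with LX-A3928 (-1.37, 95% interval -1.97 to -0.77, adjusted p = 0.00475), while its difference from LX-A2003 was -0.72 (95% interval -1.31 to -0.13, adjusted p = 0.411). Bmf had differences of -0.15 from LX-A2003 (95% interval -0.91 to 0.61) and -0.71 from LX-A3928 (95% interval -1.46 to 0.04). Insig1 had differences of 0.60 from LX-A2003 (95% interval 0.12 to 1.08, adjusted p = 0.381) and 0.76 from LX-A3928 (95% interval 0.28 to 1.24, adjusted p = 0.0749). Cry1 had differences of 0.23 from LX-A2003 (95% interval -0.31 to 0.77) and -0.11 from LX-A3928 (95% interval -0.64 to 0.42). The intervals are not adjusted for the number of genes tested, and a difference that was not called does not show that the compounds act alike.

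Among the genes with the widest differences, some had an LX-A1656 mean nearer to PBS than that of the other oligonucleotide. Against LX-A2003 the highest were the chaperone Hspa1b (1.49, adjusted p = 0.0435), the repressor Bcl6 (1.41, adjusted p = 0.0355) and the small GTPase Arl4d (1.36, adjusted p = 0.0049), and the lowest were Kdr, F8 (-1.75, adjusted p = 0.0215) and Sox5 (-1.57, adjusted p = 0.00566). Arl4d averaged 19.8 ± 5.41 CPM with LX-A1656, 7.66 ± 0.734 CPM with LX-A2003 and 21.5 ± 3.47 CPM with PBS. Against LX-A3928 the highest were the bile acid repressor Nr0b2 (2.74, adjusted p = 9.11e-06), the lipoprotein lipase regulator Angptl8 (2.39, adjusted p = 7.34e-07) and the insulin-responsive Igfbp1 (2.01, adjusted p = 0.000721). The lowest were Dbp (-3.06, adjusted p = 9.42e-05), Gadd45g, a growth arrest gene (-2.92, adjusted p = 0.00109), and Sox5 (-2.75, adjusted p = 2.53e-08). Sox5 averaged 3.41 ± 1.22 CPM with LX-A1656, 23.0 ± 3.91 CPM with LX-A3928 and 22.4 ± 4.79 CPM with PBS. Dbp averaged 8.67 ± 3.46 CPM with LX-A1656, 72.6 ± 14.0 CPM with LX-A3928 and 1.16 ± 0.886 CPM with PBS.

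**Figure D4:**
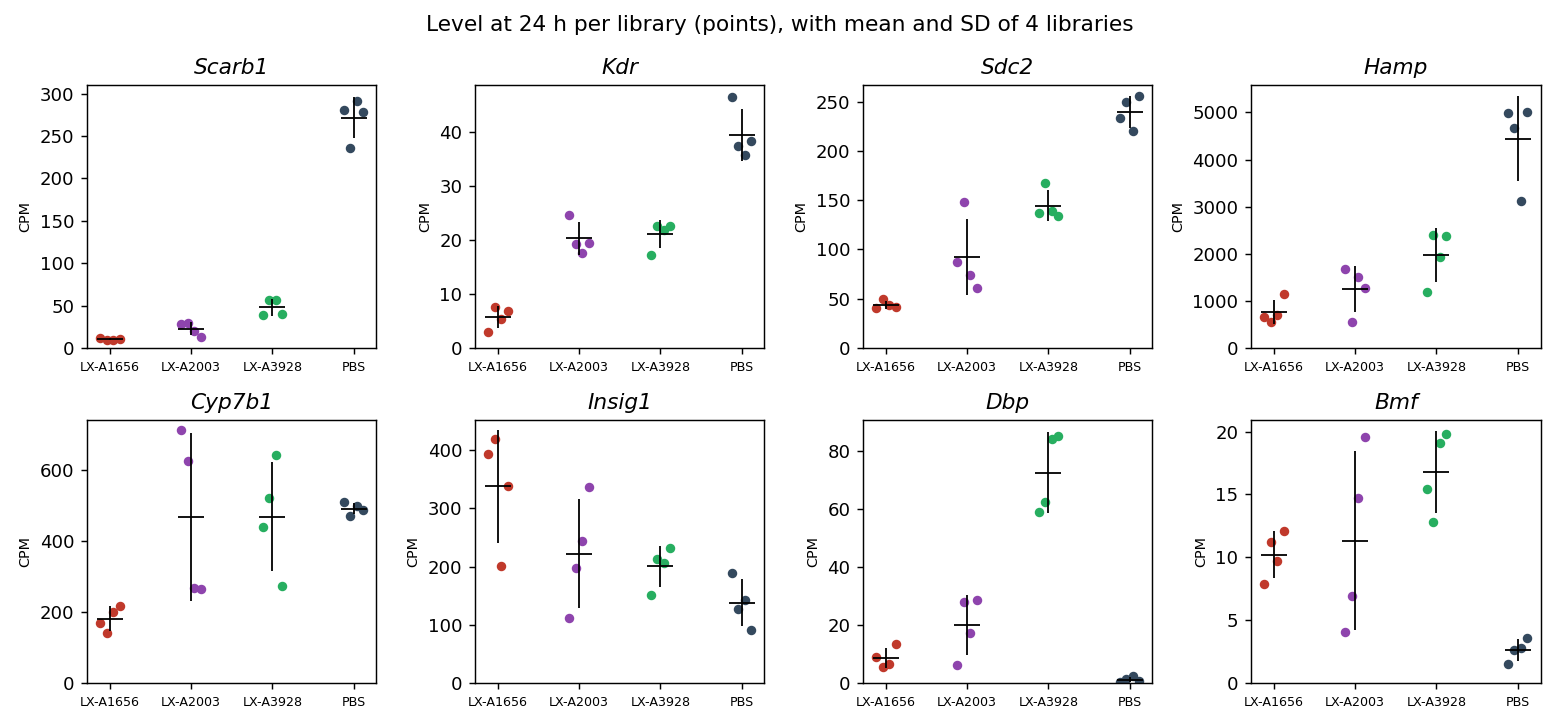
Level at 24 h of 8 genes, in CPM, in each library of the LX-A1656, LX-A2003, LX-A3928 and PBS groups, from left to right, with the mean and SD of 4 libraries in black. Scarb1, Kdr and Sdc2 are lowest with LX-A1656 (10.6, 5.71 and 44.0 CPM on average), while Dbp is highest with LX-A3928 (72.6 CPM) and Bmf overlaps among the oligonucleotides.

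Against the same vehicle libraries, Hamp had a log2 fold change of -2.54 for LX-A1656, -1.82 for LX-A2003 and -1.17 for LX-A3928. The 3 comparisons share the 4 PBS 24 h libraries. Side by side, LX-A1656, LX-A2003 and LX-A3928 gave 1.30, 0.69 and 0.54 for Insig1, and 1.98, 2.13 and 2.70 for Bmf.

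The 24 h values were followed to 72 h, where LX-A1656 is compared with other PBS libraries, so the comparisons at 24 h and at 72 h share none. At 72 h, 24.7% of all genes tested were called higher and 23.4% lower. Of the 238 genes called lower at 24 h, 210 were lower at 72 h (88.2%) and 10 higher. Of the 125 genes called higher at 24 h, 65 were higher at 72 h (52%) and 22 lower. The median log2 fold change of the 238 lower genes was -0.93 at 24 h and -2.08 at 72 h.

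Between the times, the effect itself differed for 3833 genes (30.2%), with 1805 (14.2%) higher and 2028 (16%) lower at 72 h. With library totals alone in place of TMM scaling, 2695 were higher and 1336 lower, and TMM factors set the LX-A1656 72 h libraries 0.22 apart from PBS 72 h on the log2 scale, against -0.02 at 24 h. Scarb1 had a log2 fold change of -4.68 at 24 h and -6.10 at 72 h (difference -1.42 ± 0.322, adjusted p = 0.000602). Sdc2 had -2.45 at 24 h and -6.48 at 72 h, and Slc25a21 -3.12 and -7.16. Of the 12 sinusoidal endothelial markers, 4 were lower at 24 h and 10 at 72 h. Stab2 had -2.21 at 24 h and -4.36 at 72 h (adjusted p of the difference 1.77e-07). Of 544 genes of 200 kb or more, 87 were lower at 24 h and 351 at 72 h.

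The sterol synthesis list had 2 of 17 genes called higher at 24 h and 15 at 72 h, where 1 was lower, and its median log2 fold change was 0.50 at 24 h and 2.07 at 72 h. Msmo1 had 1.24 at 24 h and 3.32 at 72 h (adjusted p of the difference 5.37e-05), and Insig1 had 1.30 and 1.38 (difference 0.08 ± 0.337, adjusted p = 0.891). Other genes turned round. Bmf had a log2 fold change of 1.98 at 24 h and -1.47 at 72 h (adjusted p of the difference 1.71e-05). Id3 fell by 1.00 on the log2 scale at 24 h and had a log2 fold change of 1.48 at 72 h (adjusted p of the difference 3.84e-07). Hamp was nearer to PBS at 72 h, with 1481 ± 361 CPM with LX-A1656 and 3646 ± 1276 CPM with PBS, a log2 fold change of -1.30 against -2.54 at 24 h (adjusted p of the difference 0.019).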

How the data were processed

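Per the labels' protocols, liver was homogenized with beads in TriPure reagent and libraries were made with an Ion AmpliSeq Transcriptome kit for mouse genes. The authors deposited whole-number read counts for each gene with no normalization, per the file headers and values. No source used here gives the aligner, build, strand handling or filters. Reads carry no molecular identifiers, and assignment between paralogs could not be checked.

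All 48 libraries, 12 groups of 4, were fitted as group means with edgeR 4.0.16 (R 4.3.3): filterByExpr, TMM factors, robust quasi-likelihood F test with 36 residual degrees of freedom, and Benjamini-Hochberg adjustment over the 12672 genes tested, with a threshold of 0.05. The common biological coefficient of variation was 0.2114. The 95% intervals use 45.0 degrees of freedom. DESeq2 1.42.0, other scalings, filters and fits, and leaving out each library were alternatives. Steps were tested on simulated counts. At a simulated log2 fold change of -1, 28 of 50 genes were called, and at 1, 26 of 50. At -2, 43 of 50 were called, and at 2, 45 of 50. Of 146 calls, 4 were of genes left unchanged. A gene that was not called may therefore still differ by a log2 fold change of 1.

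The members, lists and tests were chosen with earlier results of these data known. The rule for naming genes took Scarb1, the 12 called genes with the highest and the 12 with the lowest fold change whose group mean reached 10 CPM in 1 group and whose libraries did not overlap, up to 3 called genes of each list, members of 6 lists, and for other comparisons the 3 highest and 3 lowest. Other genes, such as Neat1, Trib3, Cyp7a1, Bbc3, Rnaseh1 and Flt1, were named after their values were seen. A few genes that the rule or the lists cover are not reported here. Spans and promoters come from RefSeq (GRCm38.p6).

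No library was a copy of another. Chi-square between replicates, divided by its degrees of freedom, ran from 7.78 to 18.5 with LX-A1656 and from 6.74 to 17.6 with PBS, above counting noise.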

Additional observations from a re-analysis of the deposited data

Results flagged for a closer look

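In 5 of 172 groups of 4 libraries checked among the named genes, 1 library stood apart from the other 3, where chance would set about 1 in 20 groups apart. Angptl4 was 127 CPM in LX-A1656 replicate 3, against 52.4 to 64.6 CPM in the other LX-A1656 libraries. Slc2a2 was 244 CPM in LX-A1656 replicate 4, against 209 to 213 CPM in the others. Arntl was 32.7 CPM in LX-A1656 replicate 1, against 29.7 to 29.9 CPM in the others. Cdh5 was 46.9 CPM in LX-A1656 replicate 4, against 34.6 to 36.4 CPM in the others, and 24.7 CPM in PBS replicate 4, against 41.7 to 43.9 CPM in the others.

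The effect of LX-A1656 over PBS differed between 72 h and 24 h by the interaction test in 3833 of the 12672 genes tested (30.2%). The genes given here include the 3 highest and 3 lowest of that test under the naming rule. Effects in the same direction were larger at 72 h for Scarb1 (adjusted p = 0.000602), Kdr (0.0121), Stab2 (1.77e-07), Hlf (1.96e-11), Cyp7b1 (2.2e-08), Slc25a21 (7.16e-07), Sdc2 (7.31e-17), Fhit (4.47e-08), Bphl (4.35e-17) and Msmo1 (5.37e-05). Kdr, for example, had a log2 fold change of -2.78 at 24 h and -3.69 at 72 h, and Cyp7b1 one of -1.44 at 24 h and -4.63 at 72 h. Hamp moved towards PBS (adjusted p = 0.019).

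Signs were opposite at the 2 times for Bmf (adjusted p = 1.71e-05), Id3 (3.84e-07), Dbp (9.17e-05) and Angptl4 (0.000205). Dbp had a log2 fold change of 2.94 at 24 h and -1.03 at 72 h, and Angptl4 one of 1.12 at 24 h and -0.77 at 72 h. Over the 4 libraries of each group, Angptl4 had 2447 counts at 24 h and 2600 at 72 h with LX-A1656. With PBS it had 1252 at 24 h and 3295 at 72 h. Dbp had 295 and 378 counts with LX-A1656, and 41 and 581 with PBS. For both genes the counts changed more between the times with PBS than with LX-A1656. Fhit, a diadenosine triphosphatase with a span of 1612 kb, had -1.61 at 24 h and -6.84 at 72 h. Bphl, a serine hydrolase, had -0.79 at 24 h and -5.21 at 72 h.

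Some genes had almost no counts in 1 group or more. Fosl1, an AP-1 subunit, had 0 counts over the LX-A1656 libraries and 1 over the PBS libraries at 24 h, and 917 with LX-A1656 and 0 with PBS at 72 h (adjusted p = 0.0335). Ypel4 had 2 counts with LX-A1656 and 4 with PBS at 24 h, and 1133 with LX-A1656 and 1 with PBS at 72 h (adjusted p = 5.95e-05). Gm30692 had 0 counts with LX-A1656 and 5 with PBS at 24 h, and 486 with LX-A1656 and 4 with PBS at 72 h (adjusted p = 5.02e-05). Cyp2b9, of a family of near-identical genes, had 402 counts with LX-A1656 and 581 with PBS at 24 h, and 22 with LX-A1656 and 1103 with PBS at 72 h (adjusted p = 9.95e-05).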

How the results depend on the processing

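The count of genes called for LX-A1656 against PBS at 24 h was 363, and it ran from 269 to 464 under other scalings, filters, the replicate block and DESeq2. A fit of the 8 libraries alone called 803. Leaving out each library gave 239 (without PBS replicate 1) to 314. Against LX-A2003 (36 genes), no filter on low counts gave 22, DESeq2 89 and the compared libraries alone 154, and leaving out each library gave 11 to 39. Against LX-A3928 (368 genes), no filter gave 229 and the compared libraries alone 1455, and leaving out each library gave 159 to 462. The difference between 72 h and 24 h (3833 genes) ran from 3315 to 3907 when a library was left out. The cause of these shifts was not tested.

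With the replicate number as a block, 339 genes were called against PBS, 33 against LX-A2003, 342 against LX-A3928 and 3725 for the difference between the times. Same-numbered libraries did not pair: their deviations correlated at -0.0621, -0.0572, 0.0867 and -0.0206.

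Of the 57 named genes called, 37 were called in every alternative run and all 57 kept their sign. Of 29 not called, 18 were called in 1 alternative or more. Genes near 1 CPM, such as Sqle and Dbp with PBS, rest on few counts, so only large differences could be detected there.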
